A study of Drosophila melanogaster with 8 samples.

Results

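Genes of the ATF4 branch of the integrated stress response were followed through starvation of the Drosophila melanogaster larval fat body, the organ that stores fat, glycogen and protein and senses nutrients for the larva. The 7 genes were taken by their FlyBase symbols from a table of 17471 genes, for their place in the pathway. No measured value enters that choice, but it was made with earlier results of these data known. They are crc, Gcn2, PEK, PPP1R15, AsnS, aay and Nmdmc, with the 16 transcripts annotated for them, and all 7 passed the filter on low values that 8332 genes passed. RNA was sequenced from larvae homozygous for the CPSF5 allele H11 (CPSF5H11/CPSF5H11) that were starved for 16 h, and from OreR larvae, a standard wild-type (WT) strain, in 3 states: fed, 4 h starved and 16 h starved. Each of the 4 groups has 2 libraries, and no fed mutant was analysed here. The labels give the stage only as larval, state neither age nor sex, and do not say what the H11 allele changes. Nothing in them says that the 2 libraries of a group came from separate animals, so the p-values measure only the spread between these libraries, which may be technical.

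In the integrated stress response, kinases that sense amino acid shortage (Gcn2) or unfolded protein in the endoplasmic reticulum (PEK, the fly PERK) phosphorylate the alpha subunit of the translation factor eIF2. General translation then slows, while upstream reading frames in the ATF4 leader let ATF4 itself be translated, so much of its control lies after transcription and is not seen in RNA levels. ATF4, encoded in the fly by crc (cryptocephal), is a bZIP transcription factor that binds genes of amino acid synthesis and uptake. PPP1R15 directs protein phosphatase 1 to eIF2 alpha and so reverses the phosphorylation. AsnS makes asparagine, aay (astray) is the phosphoserine phosphatase of the last step of serine synthesis, and Nmdmc is a mitochondrial enzyme of folate one-carbon metabolism.

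Values are TPM (a length-adjusted share of all transcripts in a library) divided by a factor per library, called scaled TPM below. The depth of the libraries is unknown, because TPM do not carry it. Fold changes are differences of log2(scaled TPM + 1), which understate changes of genes at low levels, with the standard error (SE) and the adjusted p of limma over all 8332 genes, and a gene was called at an adjusted p under 0.05. For any 1 gene taken alone, 2 against 2 libraries allow an exact two-sided permutation p of 0.333 at the lowest. In such bulk libraries, fewer cells of a type and less RNA per cell cannot be told apart.

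Levels of tissue markers and ribosomal RNA also differed between the libraries. Whether these differences came from starvation and genotype or stood beside them cannot be told apart here. The gene of the mutated factor, Cpsf5, stood at 3.60 and 3.01 scaled TPM in mutant libraries, against 5.06 and 4.20 in WT starved for 16 h (log2 change −0.39, adjusted p = 0.256, limma), so its level did not separate the genotypes past the test. All 10 fat body markers had values above 0 in every library, but their summed level was 4284 and 3055 scaled TPM in mutant libraries, against 18933 to 92737 in the 6 WT libraries. The storage protein gene Lsp2 had 8.64 and 16.7 scaled TPM in mutant libraries, against 23728 and 24705 in WT starved for 16 h, while the lipoprotein gene apolpp had 2335 and 1732 against 1917 and 1450. Of the other markers, Lsp1alpha, Lsp1beta, Fbp1 and Fbp2 were also lower in the mutant, and Fer1HCH overlapped. Apoltp (158 and 129 against 22.6 and 15.2), FASN1 (753 and 221 against 124 and 110) and Lsp1gamma (132 and 204 against 0.0650 and 0.0690) were higher, so the sum does not stand for every marker. Lsp1gamma was also far apart between the 2 fed WT libraries, at 15.6 and 0.0358. Glue protein RNA of the salivary gland was abundant in the starved WT libraries: Sgs7 had 2.98 and 3.75 scaled TPM in mutant libraries, 31.8 and 3.19 in fed WT, 13948 and 15280 in WT starved for 4 h, and 8523 and 27808 in WT starved for 16 h. Sgs7 does not stand for every salivary marker, as ng1 and ng2 overlapped between starved WT and the other libraries. In the same order, ng1 had 785 and 127, 339 and 1218, 343 and 38.3, and 489 and 596 scaled TPM. The haemocyte list, led by the collagen genes Col4a1 and vkg, summed to 476 and 324 in mutant libraries, 425 and 361 in fed WT, 66.0 and 38.0 at 4 h, and 48.0 and 40.1 at 16 h. That sum follows the collagen genes. He, Pxn, eater and NimC1 were instead higher at 4 h than in fed WT, with He at 11.8 and 9.93 scaled TPM against 1.09 and 2.64, and Hml overlapped. Nuclear ribosomal RNA took 48.8% and 31.1% of the TPM of the 2 WT libraries starved for 16 h, and 4.58% to 14.0% of the other 6.

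Among the 7 genes, aay rose in both starvation times and was the only member called in WT. Starvation for 4 h changed 47.8% of all tested genes and starvation for 16 h changed 49.3%, so 1 called member of 7 at each time is below the share of all genes. The median log2 change of the 7 members was 0.19 at 4 h and 0.23 at 16 h, beside −0.03 and 0.01 over all tested genes. Between 16 h and 4 h of starvation no member was called, where 0.036% of genes were (3 genes, limma), and no member had an unadjusted p under 0.05. Between the mutant and WT starved as long, 33.5% of genes were called and 1 of 7 members was, namely crc. The members' median log2 change there was 0.51, beside 0.09 over all genes.

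**Figure D1:**
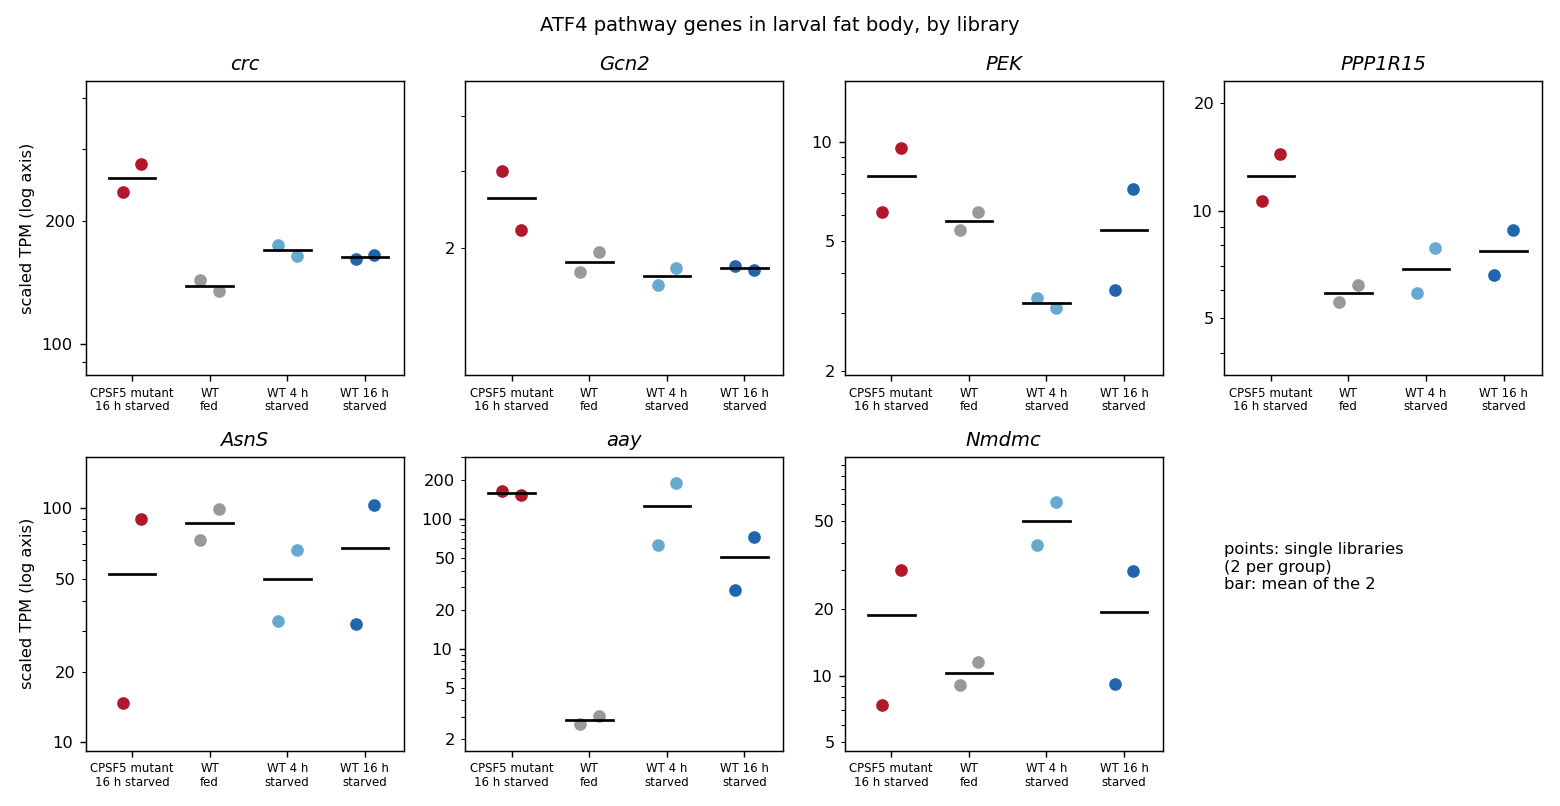
Scaled TPM (log axis) of the 7 genes in each library, with the CPSF5 mutant starved for 16 h at the left and fed, 4 h and 16 h starved WT to its right; points are libraries and bars are means of 2. The fed WT points of aay, 2.62 and 3.04, lie below all 6 starved libraries, and the 2 mutant points of crc, 235 and 275, lie above all WT points.

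The transcription factor at the centre of the pathway, crc (FBgn0000370), lies on chromosome arm 2L at 21310866 to 21319527 on the plus strand (BDGP6). It had 235 and 275 scaled TPM in mutant libraries, 143 and 134 in fed WT, 175 and 164 at 4 h, and 161 and 164 at 16 h. The 2 mutant libraries were the highest, and the ranges of the 4 h and 16 h groups overlapped. By the group means of scaled TPM, crc ranked between 197 and 302 of 13895 protein-coding genes in the 4 groups, which makes it the most abundant regulator of the 7.

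Mutant libraries held 1.56 times the crc of WT starved as long, a log2 change of 0.64 (SE 0.19, adjusted p = 0.0478, limma), higher in both mutant libraries. That call was close to the threshold. It was lost without either fed library (adjusted p = 0.0953 and 0.0922), without either WT 16 h library (0.160 and 0.140) and without either mutant library (0.0660 and 0.142), and held without either 4 h library. The mutant libraries, highest in crc, were also those lowest in the summed fat body markers, though not in each marker. The part of tissue make-up in the crc difference was not tested. The call was also lost when libraries were rescaled over coding genes (log2 change 0.73, adjusted p = 0.0651) and with quantile normalization (0.35, adjusted p = 0.270). A fit of the 2 groups alone lost it too (0.64, adjusted p = 0.0824, limma). Against fed WT, where 45.3% of genes were called, the mutant had 1.84 times the crc (log2 change 0.87, adjusted p = 0.0130), lost without fed replicate 1 (0.0601) or fed replicate 2 (0.0806), without scaling (0.63, adjusted p = 0.206) and over coding genes (0.69, adjusted p = 0.0611). In WT, crc at 4 h was 1.22 times its fed level (log2 change 0.28, 95% interval −0.18 to 0.75, adjusted p = 0.277). At 16 h it was 1.17 times the fed level (0.23, interval −0.24 to 0.70, adjusted p = 0.363), and the sign of both changes turned without scaling (−0.37 and −0.90) and over coding genes (−0.21 and −0.04).

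The gene level of crc joined 2 transcripts that behaved differently. Of the 4 annotated transcripts, crc-RA, crc-RE and crc-RF begin at the gene's first base and encode 381, 381 and 372 amino acids, while crc-RB begins at 21314360 inside the gene, has 3 exons and a leader of 1148 nucleotides, and encodes 298 amino acids. The 2 main ones, crc-RA and crc-RB, share 1336 exonic nucleotides, including the last 2 exons, and 1179 nucleotides are found in crc-RB and not in crc-RA. A later gene model, CG46314, has the exons of crc-RB over all 2515 nucleotides and is absent from the deposited table, so its RNA could not be separated from crc-RB.

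**Figure D2:**
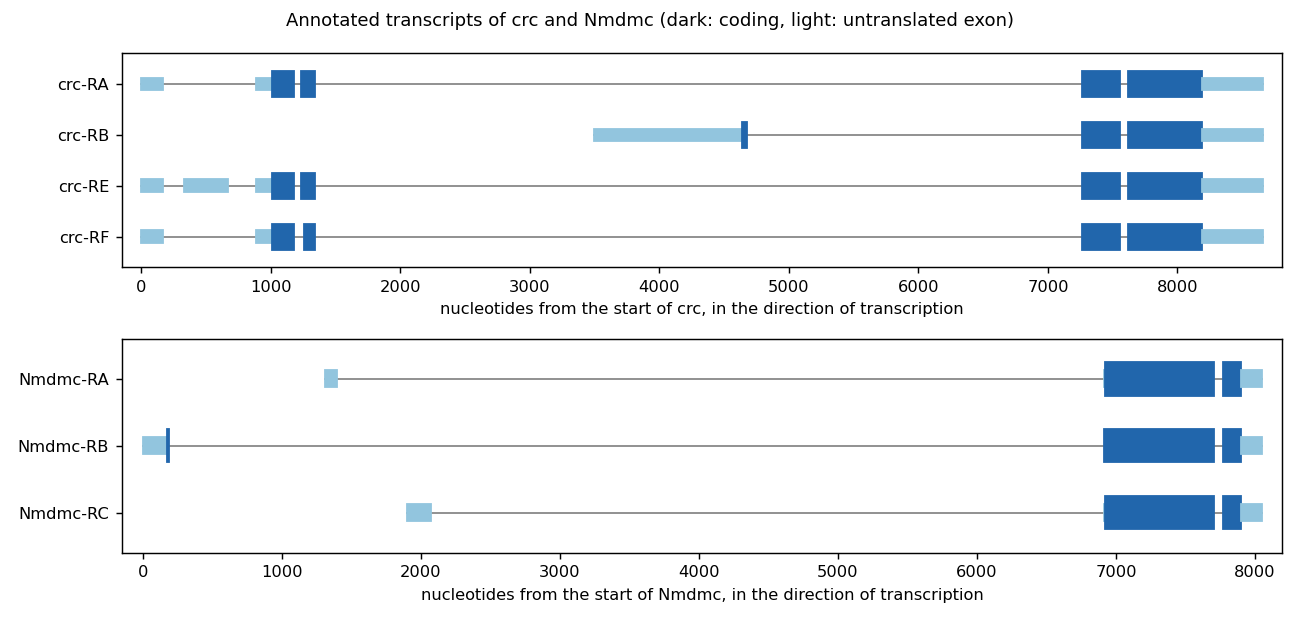
Exons of the annotated transcripts of crc (top) and Nmdmc (bottom) against the distance in nucleotides from the start of each gene, in the direction of transcription; dark blocks are coding and light blocks untranslated. The first exon of crc-RB lies inside the gene and its leader of 1148 nucleotides is longer than the 289 of crc-RA; the 3 Nmdmc transcripts differ in their first exon.

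The short transcript crc-RB had 11.8 and 10.3 scaled TPM in mutant libraries, 16.4 and 15.2 in fed WT, 45.3 and 44.6 at 4 h, and 45.8 and 41.0 at 16 h. The 4 starved WT libraries lay well above the other 4, with no overlap. At the transcript level, tested over 10965 transcripts, crc-RB was 2.85 times the fed level at 4 h (log2 change 1.46, SE 0.18, adjusted p = 0.00149, limma) and 2.75 times at 16 h (1.40, adjusted p = 0.00166), higher in 2 of 2 libraries each time. For comparison, 41.5% and 43.4% of transcripts were called at these times. In the mutant it fell to 0.255 of its level in WT starved as long (log2 change −1.88, SE 0.18, adjusted p = 0.00130), where 31.8% of transcripts were called, and it was below fed WT by a difference that was not called (−0.48, adjusted p = 0.0846; 38.3% of transcripts were called). The mutant decrease was called without each of the 8 libraries in turn (highest adjusted p = 0.0122) and under both scaling alternatives run for transcripts. The 2 starvation rises were called without each library too, but not without scaling (0.82, adjusted p = 0.0715 at 4 h; 0.30, adjusted p = 0.465 at 16 h), a setting that moves the median of all genes by −0.53 and −0.82.

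The long transcript crc-RA, by contrast, had 214 and 250 scaled TPM in mutant libraries, 123 and 115 in fed WT, 124 and 115 at 4 h, and 110 and 117 at 16 h. The 6 WT libraries were close together and both mutant libraries lay above them. Against fed WT its log2 change was 0.00 (SE 0.21, adjusted p = 0.996) after 4 h of starvation, and −0.07 (adjusted p = 0.816) after 16 h. Without scaling the 16 h change was called lower (−1.20, adjusted p = 0.0267). In the mutant crc-RA was 2.04 times its level in WT starved as long (log2 change 1.02, adjusted p = 0.0133, limma), lost without WT 16 h replicate 1 (0.0689) or replicate 2 (0.0561). The rare crc-RF rose in the mutant too, with 4.20 and 6.21 scaled TPM in mutant libraries against 2.67 and 2.25 in WT starved for 16 h (0.83, adjusted p = 0.0234), lost without either fed library, either WT 16 h library or mutant replicate 2 (adjusted p = 0.0528 to 0.105), and crc-RE was not called (0.72, adjusted p = 0.130).

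As a share of crc TPM, crc-RB made up 5.04% and 3.74% in mutant libraries, 11.4% and 11.3% in fed WT, 25.9% and 27.3% at 4 h, and 28.4% and 25.0% at 16 h. The means were 4.39% ± 0.92 in the mutant and 26.7% ± 2.40 in WT starved as long (SD, n = 2 each). The share test compares an isoform with the other isoforms of its gene on a log2 scale, over 5298 isoforms, of which 8 belong to these genes. Of those 8, 3 were called at 4 h (17.8% of all isoforms), 2 at 16 h (19.3%), none between the starvation times (0% of isoforms; none of the 8 had an unadjusted p under 0.05), 2 in the mutant against WT starved as long (19.8%) and 1 in the mutant against fed WT (20.2%). Relative to WT starved as long, crc-RB fell by 2.93 in the mutant on that log2 scale (SE 0.24, adjusted p = 0.00168, limma), and this was called without each library and under each other setting run. Its rises against fed WT, 1.47 at 4 h (adjusted p = 0.0112) and 1.48 after 16 h (adjusted p = 0.00962), missed the threshold without fed replicate 1 (0.0630 and 0.0545) and without fed replicate 2 (0.0637 and 0.0575). The 4 h rise was also lost without 4 h replicate 2 (0.0511) and the 16 h rise without 16 h replicate 1 (0.0536). The mutant share was below that of fed WT as well (−1.45, adjusted p = 0.0102), lost without fed replicate 1 (0.0544), fed replicate 2 (0.0601) or mutant replicate 2 (0.0619).

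The libraries rich in crc-RB were those rich in the glue RNA Sgs7, at 8523 to 27808 scaled TPM in the 4 starved WT libraries and 2.98 to 31.8 in the other 4. The salivary markers ng1 and ng2 did not follow this split. The fat body gene Fbp1 followed the same split as Sgs7, at 2.13 and 3.61 scaled TPM in mutant libraries, 6.56 and 13.0 in fed WT, 8866 and 23553 at 4 h, and 9098 and 5641 at 16 h. Fbp2 and Lsp2 were also higher in the 4 starved WT libraries than in the other 4. Apoltp was lower there, at 6.64 to 22.6 against 73.8 to 158. Lsp1alpha, Lsp1beta, Lsp1gamma, apolpp, FASN1 and Fer1HCH overlapped. The part of the cells that express these markers, or of developmental stage, in the crc-RB result was not tested.

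**Figure D3:**
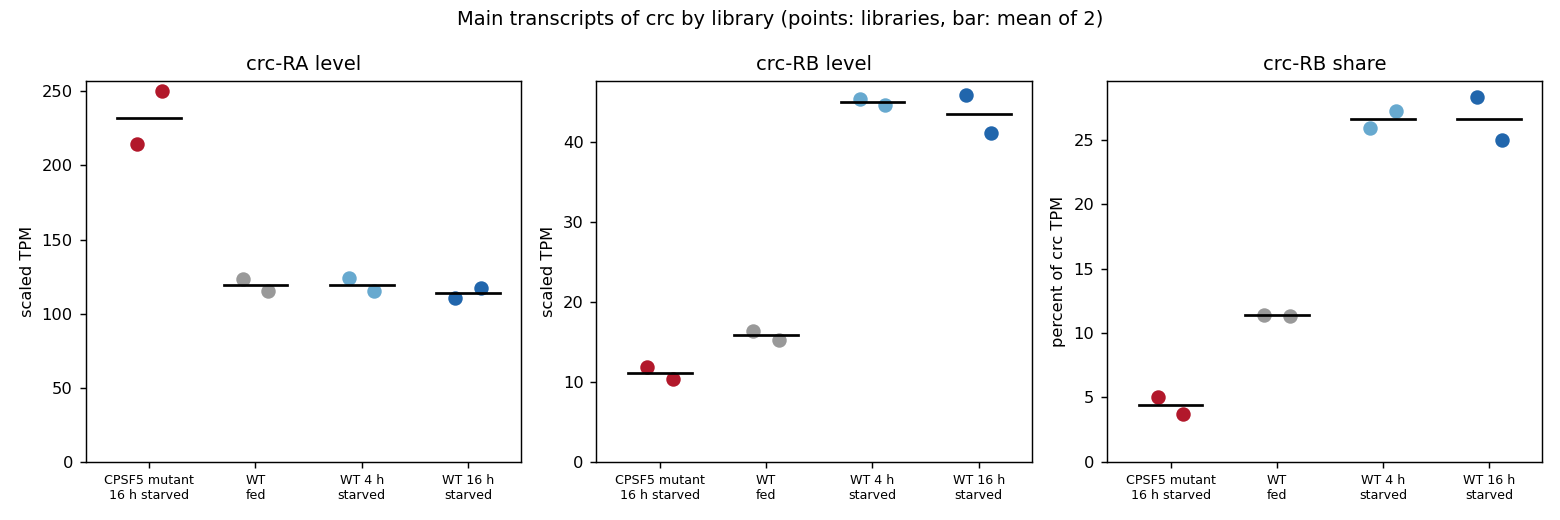
Scaled TPM of crc-RA (left) and crc-RB (middle) and the share of crc-RB in the TPM of crc in percent (right), by library; points are libraries, bars are means of 2, and the mutant is at the left of each panel. The share averaged 4.39% in the mutant, 11.4% in fed WT, 26.6% at 4 h and 26.7% at 16 h, while crc-RA on this scale was near its fed level in starved WT and higher in the mutant.

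The 2 kinases were at low levels and neither was called in any comparison (limma, lowest unadjusted p = 0.0614). The amino acid sensor Gcn2 (FBgn0019990, 3R, 31395660 to 31402013, plus strand) had 3.0 and 2.20 scaled TPM in mutant libraries, 1.77 and 1.96 in fed WT, 1.65 and 1.81 at 4 h, and 1.82 and 1.79 at 16 h. Both mutant libraries were above the 6 WT libraries, among which the groups overlapped. Its log2 change was 0.35 in the mutant against WT starved as long (interval −0.02 to 0.72, adjusted p = 0.129, limma), and −0.07 and −0.03 at 4 h and 16 h against fed WT. Without scaling it was called higher in the mutant (0.92, adjusted p = 0.0149) and lower at 16 h (−0.75, adjusted p = 0.0277). Its last 454 bases overlap PNPase on the opposite strand, and whether strand was used in the authors' quantification is not given in the sources used here. PNPase had 0.825 to 1.45 scaled TPM in the 6 starved libraries, against 8.20 and 7.29 in fed WT, whereas Gcn2 had 1.65 to 3.0 in those 6. Gcn2-RA, whose 3′ untranslated region has 636 nucleotides against 183 in Gcn2-RB and Gcn2-RC, took 88.0% and 98.4% of Gcn2 in mutant libraries, 100% and 36.7% in fed WT, 100% and 23.7% at 4 h, and 100% and 64.9% at 16 h. Replicates of 1 group were that far apart, at 3.0 scaled TPM or less, so no difference in this choice could be read, and these isoforms fell below the filter of the share test.

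PEK (FBgn0037327, 3R, 5458563 to 5464753, minus strand) had 6.12 and 9.61 scaled TPM in mutant libraries, 5.40 and 6.11 in fed WT, 3.35 and 3.11 at 4 h, and 3.54 and 7.21 at 16 h. The 4 h libraries were the lowest and did not overlap with fed WT, and the 16 h replicates were 2.04-fold apart. At 4 h PEK was 0.561 of the fed level (log2 change −0.67, SE 0.32, adjusted p = 0.129), which was called without scaling (−1.23, adjusted p = 0.0335) over coding genes (−1.07, adjusted p = 0.0233) and in a fit of the 2 groups alone (adjusted p = 0.0275). Mutant and WT starved as long differed by 0.51 (adjusted p = 0.253). Without scaling that difference was called (1.24, adjusted p = 0.0313), as was a decrease at 16 h against fed WT (−1.07, adjusted p = 0.0468). The longest transcript, PEK-RA, took 62.5% to 77.0% of PEK in all 8 libraries, and no share of the 3 PEK transcripts was called in any comparison (limma, lowest adjusted p = 0.0895, for PEK-RC at 4 h).

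The phosphatase subunit PPP1R15 (FBgn0034948, 2R, 23975599 to 23977255, minus strand) had 10.6 and 14.4 scaled TPM in mutant libraries, 5.56 and 6.19 in fed WT, 5.88 and 7.87 at 4 h, and 6.62 and 8.85 at 16 h. Both mutant libraries were above all WT libraries, and the 3 WT groups lay in a range of 5.56 to 8.85. The mutant had 1.62 times the level of WT starved as long (log2 change 0.63, interval 0.09 to 1.17, adjusted p = 0.0752, limma), which was not called, but was over coding genes (0.72, adjusted p = 0.0259) and without scaling (1.42, adjusted p = 0.00694). Against fed WT the mutant had 2.13 times the level (0.96, SE 0.22, adjusted p = 0.0150), lost without fed replicate 1 (0.0839), fed replicate 2 (0.0660) or mutant replicate 2 (0.0775), and without scaling (0.0753). In WT the log2 change was 0.19 at 4 h (adjusted p = 0.547) and 0.33 at 16 h (adjusted p = 0.263). The distance between the profiles of crc and PPP1R15, the root mean square difference of their centred log2 values over the 8 libraries, was 0.18, the smallest among the 21 pairs of members.

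The 3 enzymes of the pathway varied most, and in different ways. The serine enzyme aay (FBgn0023129, 3L, 9423253 to 9424781, plus strand) had 166 and 154 scaled TPM in mutant libraries, 2.62 and 3.04 in fed WT, 63.0 and 190 at 4 h, and 28.6 and 73.1 at 16 h. Every starved library was far above both fed libraries, while the 4 h and 16 h ranges overlapped. At 4 h aay was 44.7 times the fed level (log2 change 4.85, SE 0.61, adjusted p = 0.00128, limma), the change at rank 80 from the highest among 8332 genes. At 16 h it was 18.0 times (3.61, adjusted p = 0.00388, rank 132), and in the mutant 56.5 times the fed WT level (5.39, adjusted p = 0.00112, rank 42). These 3 rises were called without each library in turn (highest adjusted p = 0.0289) and under each other setting. The 2 mutant libraries, with Sgs7 at 2.98 and 3.75 scaled TPM, had aay within the range of the 4 starved WT libraries, where Sgs7 was at 8523 to 27808 scaled TPM. The part of glue-producing cells or of developmental stage in the aay rises was not tested. Against 4 h, the 16 h level was 0.402 times as high (−1.24, interval −2.72 to 0.24, adjusted p = 0.379).

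Between mutant and WT starved as long, aay was 3.14 times as high in the mutant (log2 change 1.78, SE 0.61, adjusted p = 0.0687), with no overlap, but not called. It was called over coding genes (1.88, adjusted p = 0.0318), without scaling (2.66, adjusted p = 0.00916), and without 4 h replicate 1 (0.0326) or 4 h replicate 2 (0.0332). The gene lies 9417 bases from Cpsf5, on the same chromosome arm, so a change at this site that came with the mutant chromosome cannot be told apart from a response to the mutation. It also lies within Atat on the opposite strand, which had 5.09 and 4.60 scaled TPM in mutant libraries, 2.94 and 2.55 in fed WT, 3.66 and 2.34 at 4 h, and 4.44 and 2.91 at 16 h. Atat did not change past the test in any comparison (limma, lowest adjusted p = 0.0603, unadjusted p = 0.0286).

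The folate enzyme Nmdmc (FBgn0010222, 3R, 9042508 to 9050555, minus strand) had 7.34 and 30.2 scaled TPM in mutant libraries, 9.09 and 11.6 in fed WT, 39.1 and 61.1 at 4 h, and 9.20 and 29.7 at 16 h. The 4 h libraries were the highest of the 8, and the 16 h and mutant groups each held 1 library near the fed level and 1 near 30. At 4 h Nmdmc was 4.85 times the fed level (log2 change 2.15, SE 0.75, adjusted p = 0.0562, limma), which was not called. It was called in a fit of the 2 groups alone (adjusted p = 0.0114), with quantile normalization (0.0372) and without any 1 of the 4 libraries of the other groups (0.0343 to 0.0439). The log2 change was 0.65 at 16 h (adjusted p = 0.505) and −0.13 in the mutant against WT starved as long (interval −1.95 to 1.69, adjusted p = 0.909).

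Of the 3 Nmdmc transcripts, Nmdmc-RB starts farthest upstream and encodes 309 amino acids, and Nmdmc-RA and Nmdmc-RC encode 303. Nmdmc-RB had 4.39 and 22.0 scaled TPM in mutant libraries, 5.71 and 6.68 in fed WT, 36.7 and 57.1 at 4 h, and 6.34 and 28.3 at 16 h. Its share of the gene was 59.8% and 72.7% in the mutant, 62.8% and 57.6% in fed WT, 93.6% and 93.3% at 4 h, and 69.0% and 95.3% at 16 h. At 4 h most Nmdmc TPM was assigned to this transcript, while Nmdmc-RA had 1.56 and 2.90 scaled TPM at 4 h against 2.51 and 4.15 in fed WT. On the share scale the log2 change of Nmdmc-RB at 4 h was 2.92, which was not called (adjusted p = 0.0599, limma). For Nmdmc-RA it was −2.91, which was called (adjusted p = 0.0473, limma). This call was lost with a pseudocount of 0.1 (−3.29, adjusted p = 0.0956). It was also lost without either fed library, either 4 h library or either mutant library, where the change was −3.14 to −2.69 over all fits with 1 library left out. The level of Nmdmc-RB rose by 2.70 at 4 h (adjusted p = 0.0435), lost without either fed library (0.157 and 0.132), either 4 h library (0.0847 and 0.160), without scaling (2.11, adjusted p = 0.0786) and over coding genes (2.25, adjusted p = 0.0532). Rel lies in the long intron of Nmdmc on the same strand, and had 17.1 and 32.7 scaled TPM at 4 h against 13.0 and 13.6 in fed WT (0.79, adjusted p = 0.129). On the opposite strand Mst85C spans the first exons of Nmdmc-RB and Nmdmc-RA and the edge of that of Nmdmc-RC. It is not known here whether strand was used. Mst85C had 4.71 and 8.41 scaled TPM in mutant libraries, 2.70 and 2.64 in fed WT, 3.29 and 4.70 at 4 h, and 3.17 and 3.78 at 16 h, with a change at 4 h that was not called (0.43, adjusted p = 0.230, limma).

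AsnS (FBgn0270926, 3L, 21173118 to 21174973, plus strand) had 14.8 and 89.9 scaled TPM in mutant libraries, 73.4 and 99.6 in fed WT, 32.9 and 66.5 at 4 h, and 32.1 and 104 at 16 h. Fed WT had the 2 closest libraries, and every starved group spanned a wide range. AsnS was 0.575 of the fed level at 4 h (log2 change −0.85, interval −3.12 to 1.41, adjusted p = 0.502), 0.784 at 16 h (−0.56, adjusted p = 0.650), and 0.772 in the mutant against WT starved as long (−0.64, interval −2.90 to 1.63, adjusted p = 0.633). The 2 mutant libraries were 6.10-fold apart, a gap on the log2 scale that 1.10% of tested genes equalled or passed. AsnS lies within chb on the same strand, which had between 4.45 and 14.4 scaled TPM in the 8 libraries.

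AsnS, Nmdmc and PPP1R15 were higher in replicate 2 than in replicate 1 in all 4 groups, as were 642 of the 8332 tested genes (7.71%), and 1204 (14.5%) were lower in all 4. Replicate numbers were given in accession order and do not pair samples. The midgut markers differed between the mutant libraries in the same direction, summing to 60.2 scaled TPM in replicate 1 and 385 in replicate 2, and the part of midgut RNA in the spread of AsnS and Nmdmc was not tested. The same markers summed to 0.584 to 6.40 in the 4 starved WT libraries, against 121 and 209 in fed WT.

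**Figure D4:**
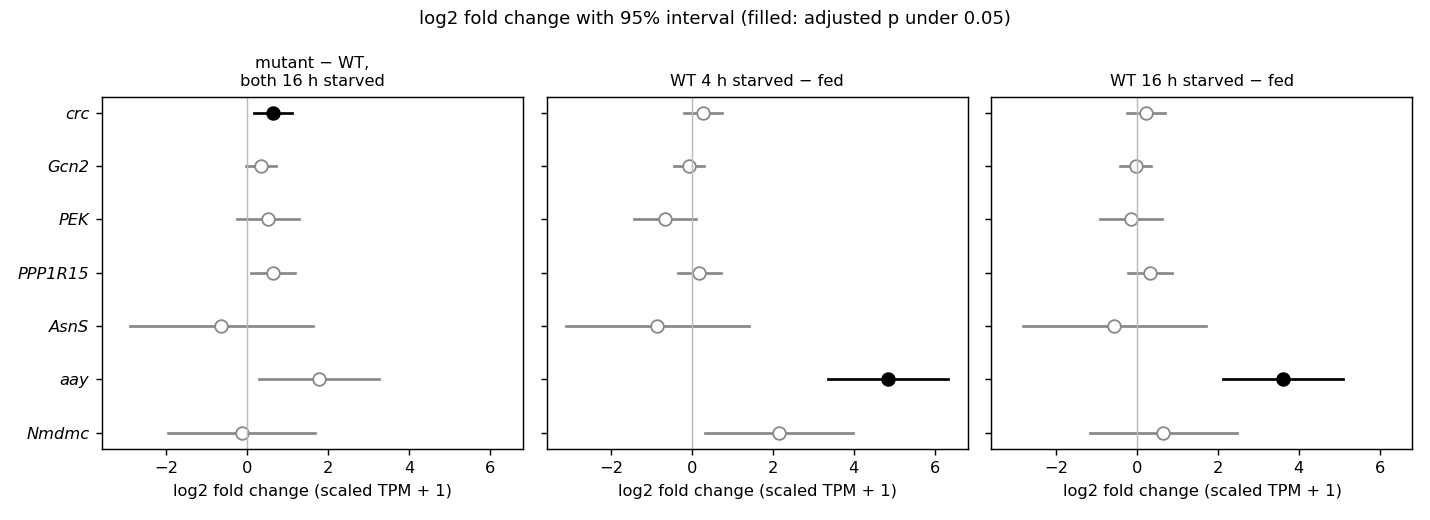
Log2 fold change of the 7 genes with its 95% interval, for the mutant minus WT both starved for 16 h (left), WT starved for 4 h minus fed (middle) and WT starved for 16 h minus fed (right); filled points had an adjusted p under 0.05 in limma. aay is filled in both starvation panels, at 4.85 and 3.61, crc is filled in the mutant panel at 0.64, and the intervals of AsnS and Nmdmc are the widest.

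The genes whose profile over the 8 libraries was most like that of each member were found by the root mean square difference of centred log2 values, among the 4256 tested genes that averaged at least 5 scaled TPM. For crc they were shi, Rheb, CG17660, CG9775 and Sqor, at distances of 0.09 to 0.12, beside a spread of crc around its own mean of 0.33. Rheb averaged 30.6 scaled TPM in mutant libraries, 18.5 in fed WT, 22.5 at 4 h and 22.7 at 16 h. For aay they were CG42587, TotA and CG9837, at 0.70 to 0.78, beside a spread of 2.17. TotA, which encodes a secreted stress peptide, averaged 3622 scaled TPM in mutant libraries, 48.4 in fed WT, 2918 at 4 h and 772 at 16 h. Nmdmc was nearest to Spn55B, CG12896 and CG17738 (0.45 to 0.51), PPP1R15 to RpS29, RpS28b and Spn27A (0.13 to 0.15), Gcn2 to caps, lark and Pex3 (0.10 to 0.12), PEK to RpL41, Vha44 and RNaseMRP:RNA (0.18 to 0.24), and AsnS to GstE7, CG31955 and GstE1 (0.44 to 0.61). These distances describe likeness over 8 libraries that share 4 conditions.

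Around the 7 genes, 9 lists of other pathway genes were counted. The counts are to be read against the shares of all tested genes, of which 21.1% rose and 26.6% fell at 4 h, 21.6% rose and 27.7% fell at 16 h, and 21.4% rose and 12.1% fell in the mutant against WT starved as long. In starved WT the RNA of eIF2, the factor that the kinases act on, was lower. Of 11 tested subunits of eIF2, eIF2B and protein phosphatase 1, 6 fell at 4 h and 6 at 16 h, and none rose (limma). For a rise, 0 and 2 had an unadjusted p under 0.05. Those that fell were subunits of eIF2 and eIF2B, and no phosphatase subunit was called at either time. When 1 library was left out, 6 to 7 of the list fell. eIF2alpha changed by −1.71 and −2.20 on the log2 scale (adjusted p = 0.00135 and 0.000515, limma), eIF2beta by −1.99 and −1.89, and eIF2gamma by −1.75 and −1.83. Of the 3 re-initiation factors for ATF4 translation, eIF2D fell at 4 h by a log2 change of −0.84, and eIF2D, MCTS1 and DENR at 16 h (−1.03, −0.99 and −0.61). In the mutant against WT starved as long, 1 eIF2 list member rose (eIF2Balpha, 0.50) and 1 fell (Pp1-87B, −0.80, which turned to 0.07 without scaling), and eIF2D (0.64) and MCTS1 (0.48) rose.

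Of 12 tested genes reported as ATF4 targets elsewhere, 5 rose at 4 h and none fell (limma; none at an unadjusted p under 0.05). They were Thor, the translation inhibitor 4E-BP (5.25), CG11899 and CG6287, the 2 enzymes of serine synthesis before aay (4.05 and 2.30), ref(2)P, an autophagy receptor (2.05), and chrb (1.40). At 16 h 5 rose and 1 fell, with Thor at 5.73, CG11899 at 2.46, ref(2)P at 2.43 and Cth at −1.03. The list's median log2 change was 1.09 and 0.60, and that of 16 h turned to −0.25 without scaling. Thor, CG11899 and CG6287 at 4 h and Thor and ref(2)P at 16 h were called without each library, and the number that rose was 3 to 6 at 4 h and 2 to 5 at 16 h. Relative to WT starved as long, 3 rose and 1 fell in the mutant: Ldh (3.35), scyl (1.57), chrb (1.39) and Thor (−1.91). Between 0 and 3 rose and between 0 and 2 fell when 1 library was left out.

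Of 13 serine, glycine and one-carbon enzymes, 3 rose and 4 fell at 4 h, near the shares of all genes, and 2 rose and 5 fell at 16 h. With 1 library left out, the 16 h counts were 0 to 2 higher and 3 to 5 lower. CG7560, a methylenetetrahydrofolate reductase, changed by −3.71 and −4.15, and Cbs, which uses serine to make cystathionine, by −3.54 and −4.01. The mutant differed from WT starved as long in Cbs, which was higher by 4.42 (adjusted p = 0.00316, limma), called without each library, and CG6415 (−1.18) and Ts (−0.66) were lower. Among 10 enzymes of glutamate, glutamine, proline and alanine, 2 rose and 3 fell at 4 h and 2 rose and 4 fell at 16 h, again near the shares of all genes, with P5cr-2 at 4.36 and 2.95, the glutamine synthetase Gs1 at 3.43 and 2.76, and Gdh at −2.99 and −2.96. In the mutant 3 rose and 1 fell, led by Oat (−3.06) and Gs2 (2.34). With 1 library left out, 1 to 3 fell at 4 h, and in the mutant 1 to 2 rose and 0 to 1 fell.

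Of 9 tested amino acid transporters, 2 rose and 2 fell at 4 h, near the shares of all genes, and 1 rose and 3 fell at 16 h. With 1 library left out, 1 to 4 rose and 2 to 4 fell at 4 h, and 1 to 2 rose and 2 to 4 fell at 16 h. The CD98 light chains mnd and JhI-21 fell by 2.34 and 2.17 at 4 h and dropped by 2.31 and 1.87 at 16 h, and NAAT1 rose by 1.73 and 1.85. Relative to WT starved as long, 5 of 9 rose in the mutant and none fell (limma; none at an unadjusted p under 0.05), namely path (2.02), JhI-21 (1.90), mnd (1.10), CD98hc (0.92) and CG13384 (0.46). path and JhI-21 were called without each library, and 2 to 5 of the 9 rose and 0 to 1 fell in those fits. The summed fat body markers and Fbp1 and Sgs7 given above differ between these same groups, and their part in the list's rise was not tested.

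Of 15 tested bZIP factors and tribbles, 3 rose at 4 h and 7 at 16 h and none fell (limma; 1 and 0 at an unadjusted p under 0.05), led by REPTOR-BP (3.70 and 4.10) and REPTOR (1.15 and 2.34), factors that act downstream of TOR. The 4 h count is near the share of all genes, and the 16 h count went to between 2 and 7 when 1 library was left out. The list's median was 0.43 and 0.63, and turned to −0.06 and −0.28 without scaling, where 1 and 2 rose and 2 and 1 fell. In the mutant CrebA was lower (−1.51) and Xbp1 (1.23) and kay (0.91) higher, and 0 to 2 rose and 0 to 1 fell with 1 library left out. Of 18 genes of the unfolded protein response of the endoplasmic reticulum, 1 rose and 5 fell at each starvation time, a share of falls near that of all genes, with Pdi at −0.96 and −1.74 and sip3 at 1.12 and 1.02 (0.53 and −0.01 without scaling, not called), and 0 to 4 fell at 4 h and 2 to 5 at 16 h when 1 library was left out. In the mutant, Xbp1 (1.23) and Der-1 (0.77) rose, and sip3 (−1.15) and Der-2 (−0.54, 0.26 without scaling) fell. Of 8 mitochondrial stress chaperones and proteases, 5 fell and 1 rose at each starvation time, and 5 fell without each library. Hsp60A changed by −4.05 and −4.29, Hsc70-5 by −3.58 and −3.21, CG11267 by −3.54 and −3.58, and ClpX rose by 1.37 and 1.29. In the mutant against WT starved as long, 5 of these 8 rose and none fell (limma; none at an unadjusted p under 0.05), with CG11267 at 2.41 and Hsp60A at 2.13, and 3 to 5 rose without each library.

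The calls of the list genes named here held to different degrees when libraries were left out in turn. At 4 h, 20 of 25 were called in all 8 such fits, and eIF2D, ref(2)P, chrb, NAAT1 and Pdi were not (highest adjusted p between 0.0512 and 0.138, limma). At 16 h, 23 of 26 were, and DENR, CG11899 and Cth were not (0.0562 to 0.144). For the mutant against WT starved as long, 6 of 26 were, namely Cbs, path, JhI-21, sip3, CG11267 and Hsp60A, and the other 20 were not (0.0501 to 0.195).

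**Figure D5:**
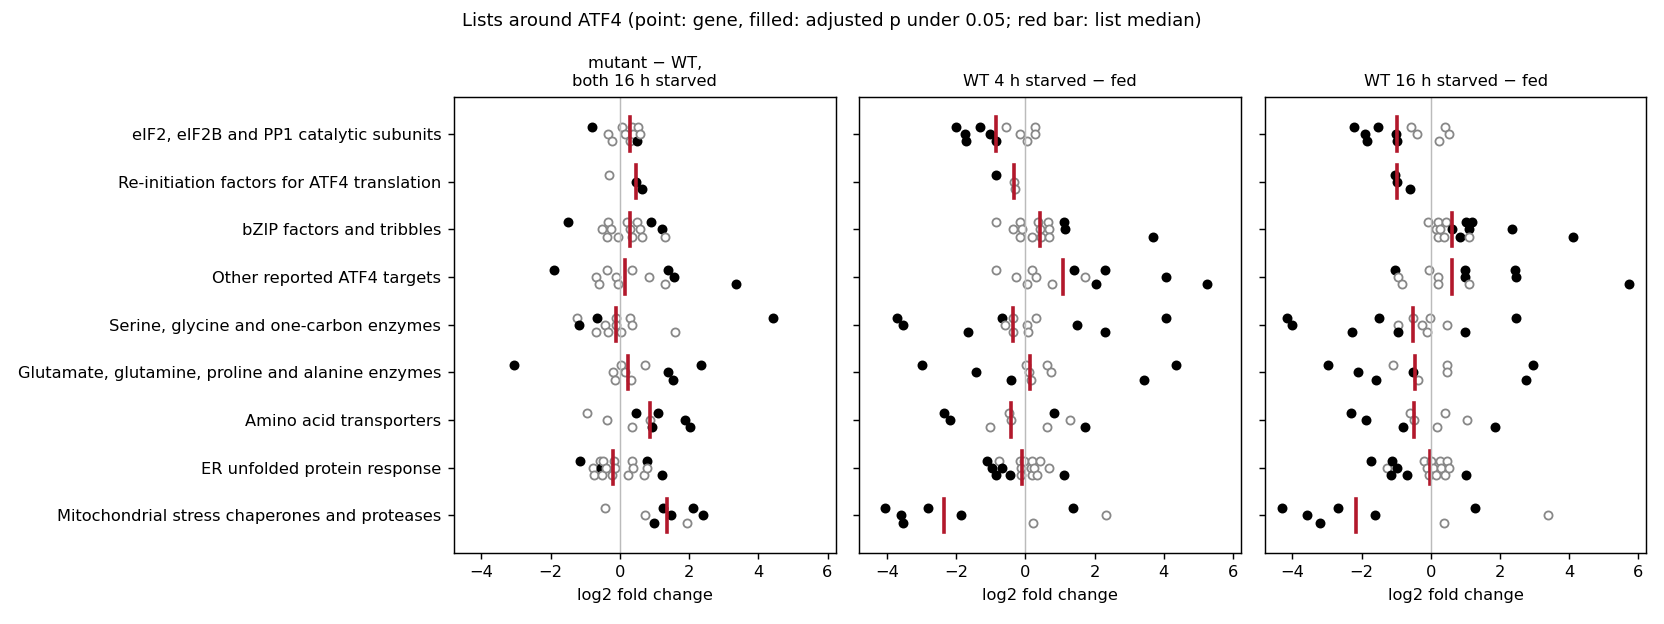
Log2 fold change of the tested genes of the 9 lists, for the mutant minus WT both starved for 16 h (left), WT starved for 4 h minus fed (middle) and WT starved for 16 h minus fed (right); each point is a gene, filled where the adjusted p was under 0.05 in limma, and the red bar is the list's median. The mitochondrial list has medians of 1.36, −2.34 and −2.15 in the 3 panels, and the eIF2 list 0.28, −0.84 and −0.97.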

How the data were processed

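Total RNA of larval fat body was extracted with Trizol and sequenced from rRNA-depleted stranded libraries, per the labels' protocols. The authors deposited TPM values per gene (17471) and per transcript (34485), 1 column per sample. STAR 2.5.3 and build BDGP6 are named per the submitters' processing notes; the tool that made the TPM, the annotation and the use of strand are not stated there or in the labels. TPM keep no depth, and their totals were 999992 to 999998, so much ribosomal or other abundant RNA in a library lowers its other values. The non-coding RNA 7SL took 11.8% and 19.0% of TPM in WT starved for 16 h, and 30.6% to 40.3% in the other libraries. Nuclear protein-coding genes took 17.6% to 41.6%.

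Identifiers were named with a later BDGP6 annotation (17249 genes directly, 132 by equal isoform sums, 90 unmatched; 34114 transcripts matched, 371 not). TPM were divided by median-of-ratios factors (0.537 to 1.52) over 5393 genes at 1 or more TPM in all libraries. The test was limma 3.58.1 (R 4.3.3), run on log2(scaled TPM + 1) of genes averaging at least 1 scaled TPM, with 4 group means, a variance trend, 4 residual degrees of freedom, two-sided tests and Benjamini-Hochberg adjustment. Isoform shares were tested as log2((isoform TPM + 1)/(other isoforms' TPM + 1)) for mean shares of 5% to 95% in genes of 5 or more TPM. Transcript levels were tested in the same way as genes, an alternative chosen after seeing the data. The scripts were tested on simulated data. Comparisons against fed WT share its 2 libraries, and those with WT starved for 16 h share that group.

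The 7 members, the lists and the tests were chosen with earlier results of these data known. Named are all 7 members; up to 4 called members of a list with the largest change, with some others of those called; and the 3 nearest genes of each member (5 for crc). Xbp1, trbl, Xrp1, CG6287 and CG11899 stand in 2 or more lists, and CG1139 matched no gene. A search for a promoter motif was not run. Markers of 7 tissues were summed as a check: muscle sums were 128 and 89.2 scaled TPM in the mutant, 233 and 160 in fed WT and 42.4 to 75.3 in starved WT; neuron sums 9.78 to 19.3 in the mutant, 10.3 and 15.6 in fed WT, 50.8 and 64.5 at 4 h and 27.7 to 30.2 at 16 h; and cuticle sums 47.0 and 1.94 in the mutant, 43.8 and 36.2 in fed WT and 2.44 to 10.9 in starved WT. The neuron sum follows Syt1, at 39.4 and 64.2 scaled TPM at 4 h. The ranges of elav, nSyb, brp, para and nrv3 at 4 h overlapped with those of fed WT and of the mutant. For nrv3 the values were 4.91 and 0.0730 at 4 h, against 7.37 and 0.612 in the mutant. The part of these tissues in the results was not tested. Salivary gland sums were 1210 and 211 in the mutant, 597 and 1828 in fed WT and 14036 to 40259 in starved WT. Within that list, ng1 and ng2 overlapped between starved WT and the other libraries.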

Additional observations from a re-analysis of the deposited data

How the results depend on the processing

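No paired analysis was possible because the labels carry no replicate numbers. The number of members called at 4 h against fed WT was 1; it was 2 without scaling, over coding genes and with quantile normalization, 3 in a fit of the 2 groups alone, and 1 to 2 when 1 library was left out. At 16 h against fed WT it was 1, and 3 without scaling. In the mutant against WT starved as long it was 1; it was 5 without scaling, 2 over coding genes, 0 with quantile normalization and in a fit of the 2 groups alone, and 0 to 2 when 1 library was left out. In the mutant against fed WT it was 3, then 1 without scaling, and 1 to 3 with 1 library left out. The number of members' isoforms called at 4 h was 3, and 0 to 6 with 1 library left out. At 16 h it was 2, and 1 to 3 with 1 library left out. In the mutant against fed WT it was 1, and 0 to 1. By level in place of share, 5 transcripts were called there, but more transcripts were tested, and only crc-RA of the 5 was also in the share test. The share of crc-RA against its other isoforms fell by 1.32 at 4 h, while its level, another quantity, had a log2 change of 0.0033 (adjusted p = 0.996), which has no direction to speak of. The causes of these differences were not tested. Leaving out scaling moved the median log2 change of all genes by −0.53 for 4 h against fed WT, −0.82 for 16 h against fed WT and 0.77 for the mutant against WT starved as long, so those fits carry that shift. The pseudocount of 0.1 and the absence of a filter on low values left each of these member counts within 1.5 times. The 2 libraries per group and the unknown depth limit what could be called, above all for Gcn2, near 2 scaled TPM, and for AsnS.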
